A study of Mus musculus with 37 samples.

Results

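The cytoplasmic relay below Toll-like receptor 4 (TLR4) was followed through the transcripts of 10 genes: the TIR-domain adaptors Myd88, Tirap, Ticam1 and Ticam2, the interleukin-1 receptor-associated kinases Irak1, Irak2, Irak3 and Irak4, and the TRAF proteins Traf6 and Traf1. They were taken by symbol from the 24016 genes of the deposited expression table, where each was listed once. The cells were mouse bone marrow-derived macrophages (BMDMs) grown with M-CSF for 6 days from male mice, either C57BL/6J wild type (WT) or lacking Arntl, the gene that encodes the clock protein Bmal1 (Arntl-/-, called Bmal1KO here), at 6 to 9 weeks of age. Both genotypes received Kdo2-lipid A (KLA), the lipid A core of lipopolysaccharide that TLR4 recognizes, and polyA RNA was sequenced at 0, 6, 24 and 48 h. Of 37 samples in the series, the 8 RNA libraries of BMDMs were used, 1 per genotype and time. With 1 library per condition, a difference between a single pair of libraries had no replicate check, so it was read against its counting error and against the share of all genes that moved as far, and the only test was a fit of genotype plus time over all 8 libraries. In mm9 their transcripts lie at chr9:119245106-119249158 (Myd88), chr9:34991976-35007490 (Tirap), chr17:56408885-56416190 (Ticam1), chrX:71259253-71269260 (Irak1), chr10:119578710-119638593 (Irak3) and chr2:34798778-34817292 (Traf1) on the minus strand, and at chr15:94374091-94398747 (Irak4), chr6:113588461-113645020 (Irak2) and chr2:101518597-101541131 (Traf6) on the plus strand, with Ticam2 on the minus strand of another chromosome, and the counts are of reads on their exons. The labels gave the strain as C57BL/6J for both genotypes, and did not say whether a library came from 1 mouse or a pool.

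TLR4 signals through a pair of adaptor routes. Tirap carries Myd88 to the receptor at the plasma membrane, where Myd88, Irak4 and Irak1 or Irak2 assemble into the Myddosome and engage Traf6, a ubiquitin ligase that leads to NF-κB and MAP kinase activation. Ticam2 (TRAM) carries Ticam1 (TRIF) to the internalized receptor, the route to IRF3 and type I interferon. Irak3 (IRAK-M) lacks kinase activity and is known as a restraint on this relay in macrophages that have already met endotoxin. Traf1, which lacks the RING domain of Traf6, is an NF-κB target. These are facts about the proteins, and the values below are of mRNA alone.

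Levels are given as scaled FPKM, fragments per kb of exon per 10000000 reads divided by a size factor for each library (0.918 to 1.13), so that levels of different genes can be compared per length. The libraries held 8587560 to 27036783 reads on genes, and the 48 h library was the shallowest of its genotype. All 10 genes passed the filter of at least 100 normalized reads in at least 1 WT library, which 10487 genes passed, and rested on 184 to 6749 reads in each library. The 8 macrophage markers found in the table of 9 listed summed to between 14579 and 36284 in WT and between 16504 and 31849 in Bmal1KO libraries. The T cell markers Cd3e, Cd3g and Cd8a were at or under the floor of 3 reads in all 8 libraries, and the fourth listed, Cd4, was at 2.14, 3.59, 10.3 and 14.8 scaled FPKM at 0, 6, 24 and 48 h in WT cells and at 3.95, 1.28, 4.14 and 3.54 in Bmal1KO cells. The 6 stromal markers summed to between 477 and 1357 in WT and between 360 and 770 in Bmal1KO libraries, the 4 neutrophil markers found to between 509 and 928 and between 833 and 1014. In bulk RNA, fewer cells of a type and less RNA per cell cannot be told apart. Arntl lay between 32.3 and 38.7 scaled FPKM in WT and between 11.3 and 20.2 in Bmal1KO libraries, lower at 4 of 4 times. The clock outputs Nr1d1 and Nr1d2 were also lower at all 4 times, by mean log2 ratios of -1.28 and -4.33, whereas Dbp was lower at 1 of 4 times, with a mean of 0.044.

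Irak3 was the most abundant of these transcripts and Traf6 the least. The means over 8 libraries ran from 605 scaled FPKM for Irak3 through 393 for Myd88, 305 for Traf1, 246 for Irak2, 227 for Irak1, 131 for Irak4, 131 for Ticam2, 77.0 for Ticam1 and 51.2 for Tirap to 45.2 for Traf6. Neighbours in this order kept it in all 8 libraries for Irak3 over Myd88, Myd88 over Traf1, Irak1 over Irak4, Ticam2 over Ticam1, and Ticam1 over Tirap. The ranges of every pair of neighbours overlapped except for Irak1 and Irak4. Irak4 and Ticam2 had near-equal means, each being higher in 4 of 8 libraries. Of the 10 genes, 7 lay at or above the median level of all genes analyzed, and Ticam1, Tirap and Traf6 lay below it. The adaptors therefore spanned a wide range, with Myd88 between 3.59 and 6.63 times Ticam1 within each library.

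**Figure D1:**
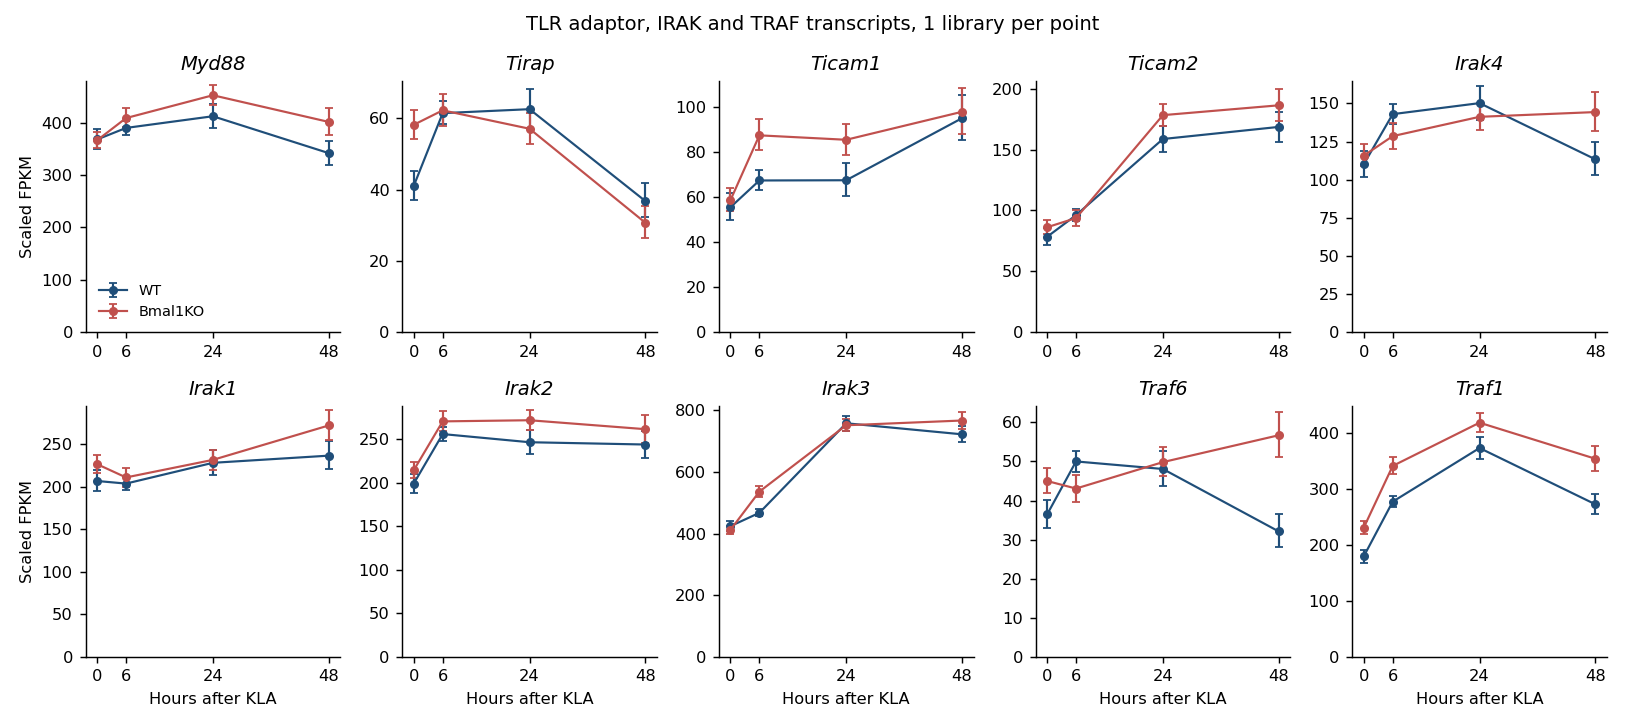
Scaled FPKM (y axis, from 0, a different scale in each panel) against hours after KLA (x axis) for the 10 genes, with WT in blue and Bmal1KO in red. Each point is 1 library and its bar is the 95% Poisson interval of its reads. Ticam2, Irak3 and Traf1 climbed in both genotypes, Tirap ended lowest at 48 h in both, and Traf6 was 32.1 in WT and 56.7 in Bmal1KO cells at 48 h.

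Between 0 and 48 h after KLA, most of the genes that moved were higher. In WT cells, 1 of 10 was past 1.5-fold higher at 6 h (Traf1), beside 5.36% of all genes analyzed. At 24 h it was 4 of 10 (Tirap, Ticam2, Irak3 and Traf1), beside 8.69%, and at 48 h 4 of 10 (Ticam1, Ticam2, Irak3 and Traf1), beside 13.5%. None was past 1.5-fold lower in WT cells, against 3.59%, 8.83% and 15.1% of all genes at 6, 24 and 48 h. In Bmal1KO cells, 0 of 10 were past 1.5-fold at 6 h, where 3.09% of all genes were higher and 3.39% lower. At 24 h, 3 of 10 were higher (Ticam2, Irak3 and Traf1), beside 7.80%, and none lower, beside 9.57%. At 48 h, 4 of 10 were higher (Ticam1, Ticam2, Irak3 and Traf1), beside 15.2%, and Tirap was lower, beside 17.2%. Ticam2, Irak3 and Traf1 passed 1.5-fold higher at both 24 and 48 h in both genotypes, which 3.68% of all genes did.

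In the additive fit, in which limma used the libraries of both genotypes for each time, Traf1 was higher at 6 h, with a mean log2 change of 0.60 and an adjusted p of 0.0238, beside 1.09% of all genes called higher. At 24 h, Ticam2, Irak3 and Traf1 were higher, beside 7.90% of all genes, by 1.03, 0.85 and 0.96 with adjusted p of 0.000438, 0.00129 and 0.000302 from limma. At 48 h, Ticam2, Irak3, Ticam1 and Traf1 were higher, beside 17.0%, by 1.11, 0.83, 0.76 and 0.61 with adjusted p of 5.86e-05, 0.000441, 0.00407 and 0.0014 from limma. Both genotypes moved that way in each of these. Tirap at 48 h, with -0.54, had an adjusted p of 0.0737 from limma, and of 0.0427 without size factors. The fit takes the course to be the same in both genotypes apart from a constant difference, had 3 residual degrees of freedom, and its p-values measure only the spread between these libraries.

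Marker sums moved as well. That of the macrophage markers was 19714, 14579, 25267 and 36284 at 0, 6, 24 and 48 h in WT cells. In Bmal1KO cells it was 16504, 19537, 23660 and 31849. It was highest at 48 h in both genotypes and lower at 6 h than at 0 h in WT cells alone. In each genotype this sum was higher the fewer reads on genes a library held. Lyz2 alone was 21812 of the 36284 at 48 h in WT cells, and reached 36.9 reads per exon base at 6 h. Mertk alone of these markers rose between 0 and 6 h in WT cells, from 122 to 138. The part of depth and of the limit on reads per position in the macrophage sum was not tested. The stromal sum went from 477, 577 and 675 at 0, 6 and 24 h to 1357 at 48 h in WT cells and from 360, 390.4 and 421 to 770 in Bmal1KO cells. The neutrophil marker S100a9 went from 164, 207 and 148 to 10.1 in WT cells and from 403, 428 and 371 to 9.00 in Bmal1KO cells, while S100a8 went from between 282 and 429 to 910.3 and from between 401 and 514 to 905. Both genotypes thus shared these shifts at 48 h, and the part of the marker shifts in the members' changes was not tested.

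The median change of the 10 genes was above that of all genes analyzed in each of these 6 comparisons. In WT cells the medians were 0.33, 0.42 and 0.24 on the log2 scale at 6, 24 and 48 h, beside -0.026, -0.0038 and 0.0035 for all genes. In Bmal1KO cells they were 0.15, 0.32 and 0.33, beside 0.0020, 0.012 and -0.011. The balance of higher and lower calls over all genes depended on the scaling. Without size factors, 9.84% of genes were higher and 1.07% lower in WT cells at 6 h, 9.80% and 20.3% at 48 h, 2.36% and 4.56% in Bmal1KO cells at 6 h, and 10.1% and 24.2% at 48 h. With upper-quartile scaling, WT cells had 6.85% higher and 2.18% lower at 6 h, and with a lowess correction for expression level Bmal1KO cells had 3.64% and 2.27%.

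**Figure D2:**
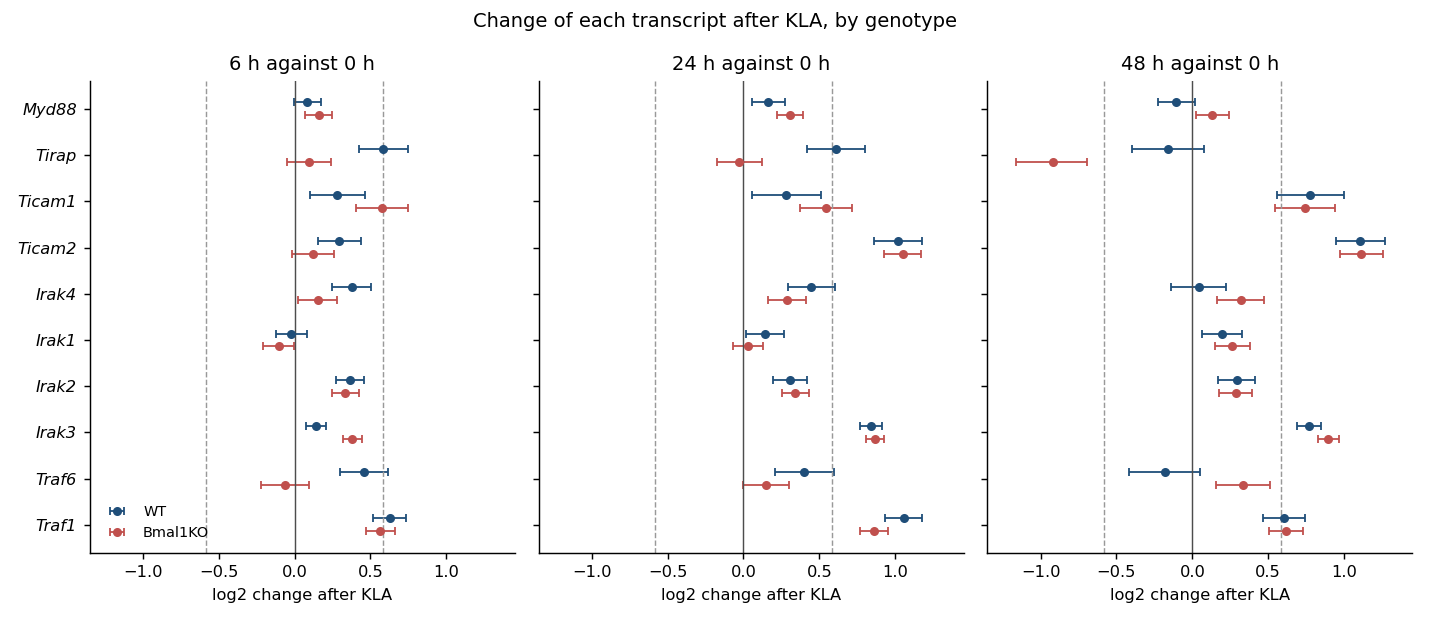
Log2 change after KLA (x axis) for each gene (y axis) at 6, 24 and 48 h against 0 h, with WT in blue and Bmal1KO in red, 1 library on each side of a change. Bars are 95% counting intervals and dashed lines mark 1.5-fold. Ticam2 reached 1.02 and 1.05 at 24 h in WT and Bmal1KO cells, and Tirap reached -0.16 and -0.92 at 48 h.

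Of the adaptors, Ticam2 rose most at 24 and 48 h. Ticam2, the bridging adaptor of the TRIF route, stood at 78.3, 96.1, 159 and 169 scaled FPKM at 0, 6, 24 and 48 h in WT cells and at 86.2, 93.7, 178 and 186 in Bmal1KO cells. The step came between 6 and 24 h, and the 4 late libraries did not overlap the 4 early ones. The log2 change at 24 h was 1.02 (95% counting interval 0.86 to 1.18) in WT and 1.05 (0.93 to 1.17) in Bmal1KO cells, and at 48 h it was 1.11 (0.94 to 1.27) and 1.11 (0.97 to 1.25). In the GENCODE annotation of mm9, 21.3% of the exon bases of Ticam2 also belong to Tmed7 on the same strand, and reads there cannot be told apart. Tmed7 itself changed by 0.026 to 0.28 on the log2 scale after KLA.

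Ticam1, the TRIF adaptor itself, was at 55.6, 67.5, 67.6 and 95.2 scaled FPKM in WT cells and at 58.7, 87.6, 85.6 and 98.1 in Bmal1KO cells. It was lowest at 0 h and highest at 48 h in both genotypes, with the middle pair of times higher in Bmal1KO cells. The log2 change at 48 h was 0.78 (0.56 to 0.996) in WT and 0.74 (0.54 to 0.94) in Bmal1KO cells. Without size factors the Bmal1KO change at 48 h was inside the 1.5-fold line, at 0.57. At 6 h the change was 0.28 in WT and 0.58 in Bmal1KO cells, just inside that line of 0.585, and 0.62 in Bmal1KO cells under the lowess correction.

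Tirap, the bridging adaptor of the Myd88 route, moved the other way at the end. It was at 41.0, 61.4, 62.5 and 36.8 scaled FPKM in WT cells and at 58.2, 62.2, 57.1 and 30.7 in Bmal1KO cells. In WT cells the 6 and 24 h libraries were high and the 0 and 48 h libraries low, whereas in Bmal1KO cells only the 48 h library stood apart. At 6, 24 and 48 h the WT changes were 0.58 (0.42 to 0.75), 0.61 (0.42 to 0.80) and -0.16 (-0.40 to 0.079). The WT change at 24 h was inside the 1.5-fold line without size factors, at 0.57, and with upper-quartile scaling, at 0.58, while that at 6 h was past it at 0.74 and 0.64. The Bmal1KO changes were 0.097 (-0.047 to 0.24), -0.028 (-0.18 to 0.12) and -0.92 (-1.16 to -0.69), the last of which was -1.09 without size factors, larger in size than any Ticam2 change on that scale (up to 0.98), and the second of which turned positive, 0.032, under the lowess correction. The 2 bridging adaptors thus parted in both genotypes: the ratio of Ticam2 to Tirap FPKM within a library, which a single factor per library cannot change, went from 1.91 at 0 h to 4.58 at 48 h in WT cells and from 1.48 to 6.07 in Bmal1KO cells. Under the lowess correction, which depends on the level, the 48 h ratios were 4.47 and 6.04.

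Myd88, the adaptor shared by most Toll-like receptors, was at 368, 390.3, 413 and 342 scaled FPKM in WT cells and at 367, 409, 453 and 402 in Bmal1KO cells. Its whole range over 8 libraries was 0.40 on the log2 scale, near the 0.42 of Irak1, and the 2 were 0.55 and 0.30 without size factors. The highest change after KLA was 0.30 (0.22 to 0.39), at 24 h in Bmal1KO cells.

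RefSeq promoter windows (GRCm38.p6, 250 bases before to 50 after the start) were found for 9 of the 10 genes, in 12 windows. Ticam2 had no window and was not searched. They were searched on both strands for the E-box CACGTG, the core sequence that Bmal1 and its partner Clock are known to bind, for the AP-1 sequence TGANTCA, for the interferon response element GAAANNGAAA and for the κB consensus. The E-box was in the windows of Ticam1 and Irak3, beside 7.15% of 32851 windows and 2187 of 27025 genes. The interferon response element was in that of Myd88, from -40 to -31, and in 3.44% of windows. AP-1 and κB sequences were in none of the 12 windows and in 7.81% and 4.51% of all windows. The windows of Ticam1 and Irak3, which hold the E-box, and of Traf1, which holds none of the 4, are shown because these transcripts rose in both genotypes. Each runs 5′ to 3′ from 250 bases before to 20 after the RefSeq start on the minus strand, with the E-box in capitals, and each matched mm9 once, at chr17:56416171-56416440 for Ticam1, chr10:119638634-119638903 for Irak3 and chr2:34817273-34817542 for Traf1.
Ticam1: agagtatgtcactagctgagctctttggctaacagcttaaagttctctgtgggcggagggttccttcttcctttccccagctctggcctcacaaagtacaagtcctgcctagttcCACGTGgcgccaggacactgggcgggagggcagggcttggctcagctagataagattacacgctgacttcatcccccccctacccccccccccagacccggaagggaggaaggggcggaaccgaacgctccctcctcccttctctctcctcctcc
Irak3: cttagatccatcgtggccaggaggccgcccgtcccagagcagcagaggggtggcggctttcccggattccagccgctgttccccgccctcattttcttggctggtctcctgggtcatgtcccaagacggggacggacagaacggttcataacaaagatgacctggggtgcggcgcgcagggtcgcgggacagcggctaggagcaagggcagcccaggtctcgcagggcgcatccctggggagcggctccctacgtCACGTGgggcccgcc
Traf1: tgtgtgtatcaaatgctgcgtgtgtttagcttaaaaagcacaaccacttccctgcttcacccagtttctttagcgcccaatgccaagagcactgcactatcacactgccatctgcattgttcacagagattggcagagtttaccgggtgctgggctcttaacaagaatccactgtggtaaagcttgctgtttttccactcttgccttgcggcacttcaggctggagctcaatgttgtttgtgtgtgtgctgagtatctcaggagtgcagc
The Ticam1 E-box lies from -135 to -130. That of Irak3 lies from 6 to 11 of the RefSeq start, which is 60 bases upstream of the start of the transcript in the deposited table. A second Irak3 window held none of the 4 sequences.

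Among the IRAKs, Irak3 rose at 24 and 48 h and the others moved less at those times. Irak3 was at 424, 467, 758 and 722 scaled FPKM in WT cells and at 412, 536, 752 and 767 in Bmal1KO cells. The 24 and 48 h libraries were all above the 0 and 6 h libraries. The log2 change was 0.84 (0.77 to 0.91) at 24 h and 0.77 (0.69 to 0.85) at 48 h in WT cells, and 0.87 (0.81 to 0.93) and 0.90 (0.83 to 0.97) in Bmal1KO cells. The WT change at 48 h was 0.56, inside the 1.5-fold line, under the lowess correction. At 6 h the change was 0.14 (0.076 to 0.21) in WT and 0.38 (0.32 to 0.44) in Bmal1KO cells, but 0.37 and 0.24 under the lowess correction.

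The other 3 IRAKs stayed within 1.5-fold at every time. Irak4, the first kinase of the Myddosome, was at 110.1, 143, 150.2 and 113 scaled FPKM in WT cells and at 116, 129, 141 and 144 in Bmal1KO cells. Irak1, its substrate, was at 207, 204, 228 and 237 in WT cells and at 227, 211, 232 and 272 in Bmal1KO cells. Irak2, known for sustaining the later response, was at 199, 256, 247 and 244 in WT cells and at 214, 271, 272 and 262 in Bmal1KO cells. Of the 3, Irak2 alone was higher than at 0 h in all 6 comparisons and under each scaling tried, by 0.29 to 0.36 with size factors and by as little as 0.11 without them.

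The ratio of Irak3 to the other IRAKs within a library cannot be changed by a single factor per library, and showed the same step. Irak3 stood at 3.85, 3.27, 5.05 and 6.37 times Irak4 at 0, 6, 24 and 48 h in WT cells and at 3.56, 4.17, 5.32 and 5.31 times in Bmal1KO cells. Against Irak1 the ratios were 2.05, 2.29, 3.32 and 3.05 in WT and 1.82, 2.54, 3.24 and 2.82 in Bmal1KO cells. Against Irak2 they were 2.13, 1.83, 3.07 and 2.96 in WT and 1.92, 1.98, 2.76 and 2.93 in Bmal1KO cells. The ratio of Irak3 to each of the 3 was thus higher at both late times than at both early times in both genotypes. Under the lowess correction this was lost for Irak1 in Bmal1KO cells, where the ratio was 2.57 at 6 h and 2.51 at 48 h, and the 48 h ratios to Irak4 were 5.39 in WT and 4.55 in Bmal1KO cells.

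**Figure D3:**
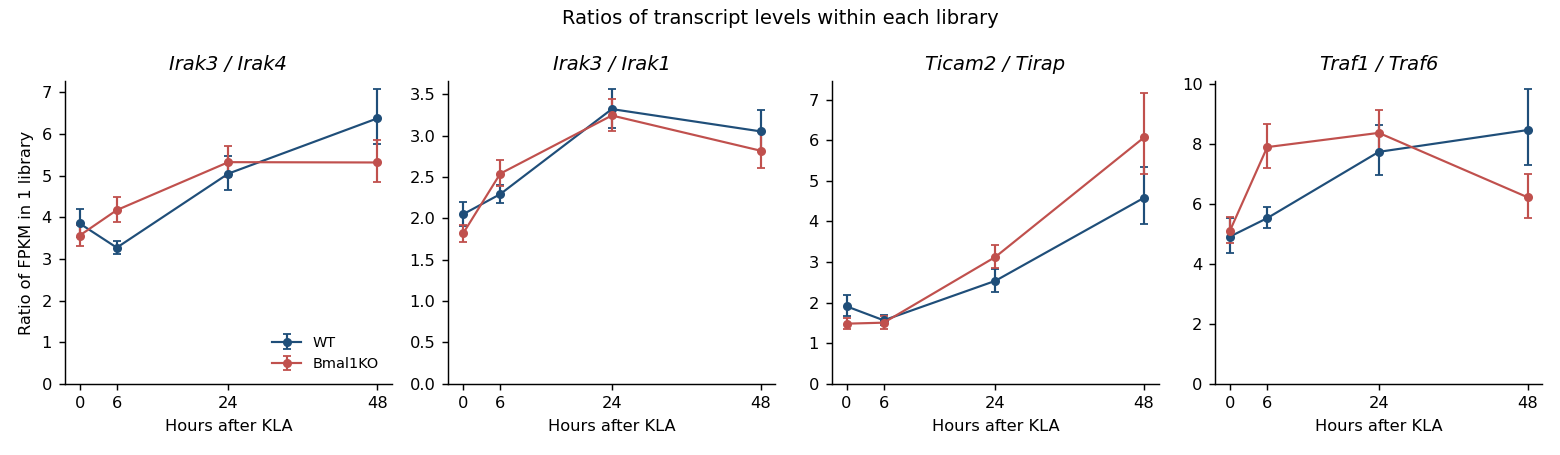
Ratio of the FPKM of a pair of genes within 1 library (y axis, from 0) against hours after KLA (x axis), with WT in blue and Bmal1KO in red. Bars are 95% counting intervals. Irak3 over Irak4 and over Irak1 stepped up by 24 h, Ticam2 over Tirap reached 4.58 in WT and 6.07 in Bmal1KO cells at 48 h, and Traf1 over Traf6 reached 8.47 and 6.23.

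The TRAF transcripts differed in size and course. Traf1 was at 179, 277, 372 and 272 scaled FPKM in WT cells and at 230.3, 340.4, 418 and 353 in Bmal1KO cells. It was lowest at 0 h and highest at 24 h in both genotypes. The log2 change was 0.63 (0.52 to 0.74), 1.06 (0.93 to 1.18) and 0.60 (0.46 to 0.74) in WT cells and 0.56 (0.47 to 0.66), 0.86 (0.77 to 0.95) and 0.62 (0.50 to 0.73) in Bmal1KO cells. The changes at 48 h fell inside the 1.5-fold line without size factors, at 0.47 and 0.44, and under the lowess correction, at 0.54 and 0.53, and that in WT cells with upper-quartile scaling, at 0.57.

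Traf6, the ligase that the Myddosome engages, was at 36.4, 50.01, 48.1 and 32.1 scaled FPKM in WT cells and at 45.0, 43.1, 49.8 and 56.7 in Bmal1KO cells. WT cells had their high libraries at 6 and 24 h and their lowest at 48 h, whereas Bmal1KO cells had their highest at 48 h. The WT changes were 0.46 (0.30 to 0.62), 0.40 (0.20 to 0.60) and -0.18 (-0.42 to 0.051), and those in Bmal1KO cells -0.063 (-0.22 to 0.093), 0.15 (-0.0038 to 0.30) and 0.33 (0.16 to 0.51). Without size factors the WT change at 6 h was past 1.5-fold, at 0.61. The Bmal1KO value at 6 h turned positive, 0.0079, under the lowess correction.

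**Figure D4:**
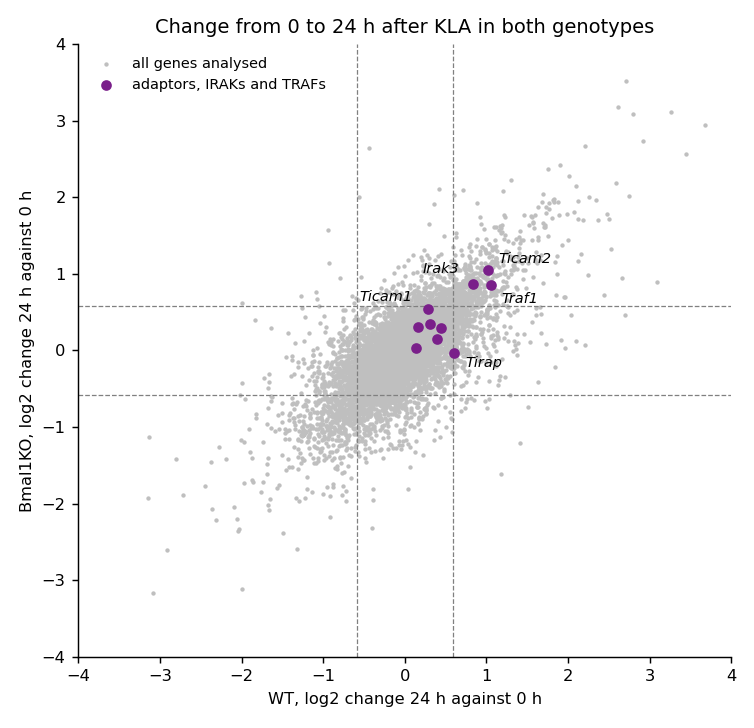
Log2 change from 0 to 24 h after KLA in WT (x axis) and in Bmal1KO cells (y axis) for the 10487 genes analyzed (grey) and the 10 adaptors, IRAKs and TRAFs (purple). Dashed lines mark 1.5-fold and 1 gene lies outside the axes. Ticam2, Irak3 and Traf1 lie past 1.5-fold in both genotypes, and Tirap at 0.61 in WT and -0.028 in Bmal1KO cells.

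Between genotypes, at 0, 6 and 24 h, 0 of 10 were past 1.5-fold, beside 5.18%, 4.67% and 6.70% of all genes in either direction. At 48 h, 1 of 10 was (Traf6), higher in Bmal1KO cells, beside 11.7% of all genes, 5.74% higher and 5.91% lower. At 0 h 3.19% of all genes were higher and 1.98% lower, at 6 h 2.03% and 2.64%, and at 24 h 3.59% and 3.11%. Without size factors, 4.55% of genes were higher and 1.35% lower at 0 h. At 6 h the shares were 0.677% and 4.98% without size factors, 1.26% and 3.39% with upper-quartile scaling, and 1.77% and 1.40% with the lowess correction. The median log2 ratio of the 10 genes was 0.12, 0.059, 0.093 and 0.17 at 0, 6, 24 and 48 h, beside -0.014, 0.0076, -0.0024 and -0.020 for all genes.

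Over the 4 times together, 0 of 10 differed between genotypes in the additive fit at an adjusted p under 0.05 from limma, beside 0.305% of all genes. At an unadjusted p under 0.05 it was 1 of 10 (Traf1), beside 8.60%. Without the 0, 6, 24 and 48 h libraries in turn, that share of all genes was 7.19%, 16.3%, 5.64% and 6.25%, with 1 of 10 in each. Traf1 was 0.30 higher in Bmal1KO cells on the log2 scale (95% interval 0.13 to 0.47), higher at 4 of 4 times, with an adjusted p of 0.239 from limma. For Traf6 the mean was 0.24 (-0.14 to 0.62) and for Ticam1 0.21 (-0.043 to 0.46). The Traf6 mean was taken over ratios that ran from -0.22 at 6 h to 0.82 at 48 h. With 4 pairs matched by time, an exact sign-flip test of 1 gene cannot go below 0.125.

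With these size factors, Traf6 and Tirap showed the largest single differences between genotypes. Under the lowess correction Ticam1 at 6 h, 0.45, was level with Tirap at 0 h, 0.44. The log2 ratio of Bmal1KO to WT at 0, 6, 24 and 48 h was 0.30 (0.13 to 0.48), -0.22 (-0.36 to -0.075), 0.052 (-0.12 to 0.23) and 0.82 (0.58 to 1.06) for Traf6. The 48 h ratio stayed between 0.80 and 0.86 under the 3 other scalings. It compares the shallowest library of each genotype, on 234 reads in WT and 398 in Bmal1KO cells, and at that time the stromal sum was 1357 in WT and 770 in Bmal1KO cells and Cd4 14.8 and 3.54, whose part in it was not tested. For Tirap the 4 ratios were 0.50 (0.33 to 0.68), 0.018 (-0.11 to 0.15), -0.13 (-0.30 to 0.039) and -0.26 (-0.55 to 0.025), and the sign at 6 h changed to -0.12 without size factors. At 0 h the neutrophil sum was 509 in WT and 900.0 in Bmal1KO cells and S100a9 164 and 403, whose part in the Tirap difference was not tested.

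Ticam1, Irak1, Irak2 and Traf1 were higher in Bmal1KO cells at all 4 times, as were 7.84% of all genes analyzed, and none was lower at all 4 times, as 7.49% were. Of the marker sums of other cells, the neutrophil sum at 0, 6, 24 and 48 h was 509, 537, 604 and 928 in WT and 900.0, 1014, 833 and 943 in Bmal1KO cells, higher at 4 of 4 times, and the stromal sum was lower at 4 of 4 times. Single markers did not all follow: S100a8 was lower in Bmal1KO cells at 24 and 48 h and S100a9 at 48 h, and the stromal markers Dcn and Lum were higher at 3 of 4 times each. The T cell and B cell sums, at most 14.8 scaled FPKM, changed direction between times, and the dendritic cell sum, at most 9.63, was higher in Bmal1KO cells at 4 of 4 times. Ccr7 made up most of the dendritic cell sum. The dendritic marker Zbtb46 went the other way, at 1.88, 1.83, 0 and 1.12 in WT and 0.638, 0, 0 and 0 in Bmal1KO cells. The part of all these markers in the differences was not tested. For Traf1 the log2 ratios were 0.36 (0.24 to 0.48), 0.30 (0.22 to 0.38), 0.17 (0.071 to 0.26) and 0.38 (0.24 to 0.51) at 0, 6, 24 and 48 h, and for Ticam1 they were 0.079 (-0.12 to 0.28), 0.38 (0.23 to 0.52), 0.34 (0.14 to 0.54) and 0.043 (-0.17 to 0.26), all of them positive under each scaling tried. For Irak1 and Irak2 the 6 h ratio, 0.050 and 0.080, turned to -0.084 and -0.054 without size factors. For none of the 10 genes did the 4 Bmal1KO libraries lie wholly above or below the 4 WT libraries, whereas 0.667% of all genes had all 4 Bmal1KO libraries above and 0.620% had them below.

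The remaining ratios were within 0.35 on the log2 scale with these size factors, and within 0.39 without them. Irak4 was lower in Bmal1KO cells at 6 h, -0.15 (-0.27 to -0.040), and higher at 48 h, 0.35 (0.16 to 0.54). Myd88 was at 0.13 (0.034 to 0.23) at 24 h and 0.23 (0.098 to 0.37) at 48 h, and its ratios at 0 and 6 h, -0.0063 and 0.068, changed sign with the scaling. Ticam2 lay between -0.036 and 0.17. Irak3 lay between -0.041 and 0.20, with a sign that changed with the scaling at 0, 6 and 24 h.

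**Figure D5:**
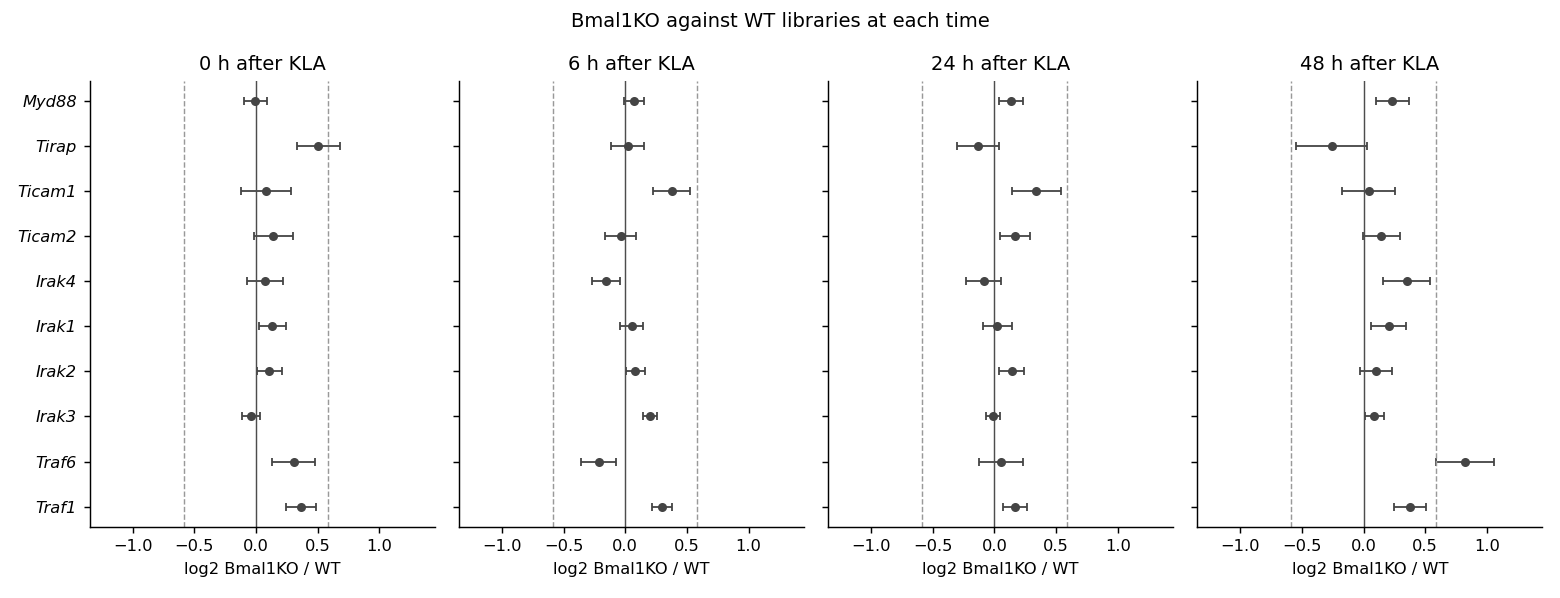
Log2 ratio of Bmal1KO to WT (x axis) for each gene (y axis) at 0, 6, 24 and 48 h after KLA, 1 library on each side of a ratio. Bars are 95% counting intervals and dashed lines mark 1.5-fold. Traf6 at 48 h, 0.82, is the point past the dashed line.

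The size of the change after KLA was also set side by side in the 2 genotypes, as the Bmal1KO change minus the WT change. The 3 differences of a gene share its 0 h libraries, so they are not independent. For Tirap it was, at 6, 24 and 48 h in turn, -0.48 (-0.70 to -0.27), -0.64 (-0.87 to -0.40) and -0.76 (-1.09 to -0.44). Tirap was past 1.5-fold lower at 24 and 48 h, as were 5.24% and 8.66% of all genes. With these size factors no other of the 10 was past 1.5-fold at any time, beside 7.80% of all genes lower at 6 h and 8.22%, 4.24% and 6.98% higher at 6, 24 and 48 h. For Traf6 it was -0.52 (-0.74 to -0.30), -0.25 (-0.50 to -0.0092) and 0.51 (0.23 to 0.80). The 6 h difference depended on the scaling: for Traf6 it was past 1.5-fold without size factors, -0.73, and with upper-quartile scaling, -0.61, but -0.35 under the lowess correction, and for Tirap it was past the line without size factors, -0.70. For the 3 genes that rose at both late times the difference at 24 and 48 h was 0.030 and 0.0063 for Ticam2, 0.029 and 0.13 for Irak3, and -0.20 and 0.014 for Traf1. These 3 passed 1.5-fold in both genotypes, a choice that favours small differences. The counting interval excluded 0 for Traf1 at 24 h (-0.35 to -0.046) and Irak3 at 48 h (0.025 to 0.23), and for none of the rest. Over counting error alone the Ticam2 intervals, -0.17 to 0.23 and -0.21 to 0.22, did not reach 1.5-fold in either direction.

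The wider TLR4 relay held 60 listed genes, of which 55 passed the filter on reads and Sarm1, Sigirr, Il1rl1, Irak1bp1 and Traf4 did not. In WT cells 1, 9 and 7 of 55 were past 1.5-fold higher at 6, 24 and 48 h, or 1.82%, 16.4% and 12.7% beside 5.36%, 8.69% and 13.5% of all genes, and 0, 1 and 5 were lower, up to 9.09% beside 15.1% at 48 h, with medians of 0.098, 0.15 and 0.081. In Bmal1KO cells 1, 8 and 9 were higher, or 1.82%, 14.5% and 16.4% beside 3.09%, 7.80% and 15.2%, and 1, 1 and 3 lower, up to 5.45% beside 17.2% at 48 h, with medians of 0.057, 0.15 and 0.059. Between genotypes 0, 0, 1 and 2 of 55 were higher in Bmal1KO cells at 0, 6, 24 and 48 h, the last 2 being 1.82% and 3.64% beside 3.59% and 5.74% of all genes, and none lower. Of the 8 kinases and partners around TAK1 and IKK, 1 was past 1.5-fold higher at 24 h in WT cells (Map3k8), beside 8.69% of all genes. Another, Tab1, was lower at 48 h in WT and at 6 h in Bmal1KO cells, beside 15.1% and 3.39%. Both were named after their values were seen, and the share of all genes past 1.5-fold at any time was not taken.

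In that wider relay, 5 genes were past 1.5-fold in the same direction at 2 or more times after KLA in both genotypes, as were 7.94% of all genes, and all 5 were higher. Irf7, an interferon regulatory factor that is itself induced by interferon, went from 237 to 406, 735 and 1172 scaled FPKM in WT cells and from 282 to 499, 790 and 1189 in Bmal1KO cells. Peli2, of the Pellino ligases that bind IRAK proteins, went from 16.8 to 16.6, 57.4 and 48.3 and from 16.8 to 18.5, 60.5 and 71.2. Irf7 was highest at 48 h in both genotypes, and Peli2 stepped up between 6 and 24 h in both. Birc3, the TRAF-binding ligase cIAP2, went from 224 to 290, 486 and 415 and from 211 to 310.2, 489 and 466. Trafd1, a TRAF-type zinc finger protein, went from 317 to 469.7, 499 and 595 and from 367 to 462, 570.2 and 642. Cd14, the co-receptor that hands lipopolysaccharide to TLR4, went from 1706 to 1458, 2799 and 2919 and from 1513 to 2113, 2586 and 3323. In each genotype Cd14 was higher the fewer reads on genes a library held, and it rested on 11800 reads in the WT 6 h library. The part of depth and of the limit on reads per position in the Cd14 course was not tested. Only Traf5 passed 1.5-fold in 1 direction between genotypes at 2 times, 24 and 48 h, which 3.91% of all genes did at 2 or more times, with 29.0, 40.9, 24.2 and 18.2 scaled FPKM in WT and 42.1, 29.8, 39.4 and 32.7 in Bmal1KO cells.

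The genes with a course most like the 3 widest-ranging members were found by Pearson's r of log2 level over the 8 libraries, which share their genotypes and times. For Ticam2 they included Rasa4 (0.99), Pitpnm1 (0.99), Tbc1d20 (0.99) and Hif1a (0.99). For Traf1 they were Tceb3 (0.99), Traf2 (0.98), 6530402F18Rik (0.97), Snx11 (0.97) and Ftsj1 (0.96). For Tirap they were Fam173b (0.97), Styx (0.96), Lacc1 (0.96), Mybpc3 (0.95) and Fam83d (0.95). Of these, Traf2 also belongs to the wider relay, at 73.4 to 130.2 scaled FPKM, and Hif1a ranged from 254 to 563.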

How the data were processed

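PolyA RNA from BMDMs was measured in 8 libraries, grouped by the genotype and time in their titles. Paired-end reads had been aligned by the authors (STAR, mm9) and counted over the exons of RefSeq genes (HOMER, either strand, at most 3 reads per position). Each library was brought to 10000000 reads, and the authors deposited FPKM for 24016 genes. The limit per position can hold down very deep genes. As a mean over exon bases, the 10 genes reached at most 2.28 reads (Irak3, WT 6 h), beside 36.9 for Lyz2 in that library. Whether the limit held down any of the 10 was not tested. Of the value columns, 4 matched no sample and were not used, and 1 line, a fragment, was left out.

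FPKM times length was a whole multiple of 1 read for 100% of low values in each library (within 0.1 read), which gave the reads. Size factors (median of ratios) were applied to the FPKM, and log2 ratios used a pseudocount of 0.1, which understates changes of low genes. Intervals are at the 95% level (exact Poisson for a level, Clopper-Pearson for a ratio) and cover counting error only, as paired and PCR-duplicated reads are not independent molecules. A change was counted past 1.5-fold. Genes of the wider relay were named when past 1.5-fold in 1 direction at 2 or more times after KLA in both genotypes, or between genotypes at 2 or more times, and 5 like genes were named for each of the 3 members of widest range, of which 1 is not reported here. The members and lists were chosen with earlier results of these data known, and the within-library ratios and differences of changes after seeing the values. In all, 9 alternatives were tried. After seeing the data, log2 scaled FPKM was also fitted with genotype plus time over the 8 libraries (limma with a trend, Benjamini-Hochberg adjustment over 10487 genes), which matches WT and Bmal1KO libraries by time. No count test on the reads was run. The steps were checked on simulated data. The calculations ran in Python 3.11.15 with scipy 1.17.1, pandas 2.3.3, numpy 2.4.6 and statsmodels 0.14.6, and in R 4.3.3 with limma 3.58.1, and matplotlib 3.10.9 drew the plots. The ChIP samples of the series were not analysed here.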

Additional observations from a re-analysis of the deposited data

Results flagged for a closer look

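The change after KLA had opposite signs in the 2 genotypes, each from 1 library per time, for 3 genes at 4 comparisons, and the difference was not tested. The share of all genes with opposite signs was not taken, so whether these are more than usual is not known. For Traf6 the log2 change at 48 h was -0.18 in WT and 0.33 in Bmal1KO cells, and at 6 h it was 0.46 and -0.063. For Tirap at 24 h it was 0.61 in WT and -0.028 in Bmal1KO cells. For Myd88 at 48 h it was -0.11 in WT and 0.13 in Bmal1KO cells. The counting interval included 0 on 1 side or the other in each, as for Traf6 at 48 h in WT cells (-0.42 to 0.051), and the Bmal1KO sign turned under at least 1 scaling for Traf6 at 6 h, Tirap at 24 h and Myd88 at 48 h.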

How the results depend on the processing

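Of the 20 counts of genes past 1.5-fold (the 10 members and the wider relay, in 10 comparisons), pseudocounts of 1 and 0.01 and a counting interval excluding no change moved none by over 1.5 times. Without size factors, the median change of all genes shifted by 0.16 at 6 h and -0.14 at 48 h in WT cells, by -0.17 at 48 h in Bmal1KO cells and by -0.13 between genotypes at 6 h. There, the members past 1.5-fold numbered 3 at 6 h in WT cells and 3 at 48 h in Bmal1KO cells, and the wider relay had 5 at 6 h in WT cells, 1 between genotypes at 0 h and 2 at 6 h. Upper-quartile scaling gave 2 members and 2 genes of the wider relay at 6 h in WT cells. The lowess correction gave 2 members at 48 h in WT cells, 1 at 6 h in Bmal1KO cells (Ticam1, 0.62) and 2 of the wider relay at 6 h in WT cells. Under it, 13.3% of all genes were higher and 13.7% lower at 48 h in WT cells, and 4.44% and 2.83% at 6 h. At 2-fold, the members numbered 0, 2 and 1 at 6, 24 and 48 h in WT cells, 1 at 24 h and 1 at 48 h in Bmal1KO cells, and 0 between genotypes at 48 h. The wider relay then had 0, 3 and 3 in WT cells, 0, 3 and 4 in Bmal1KO cells, and 0 between genotypes at 24 and at 48 h. Of all genes, 1.51%, 2.94% and 5.42% were past 2-fold higher in WT cells and 0.219%, 2.63% and 6.71% lower. In Bmal1KO cells 0.791%, 2.38% and 5.85% were higher and 0.439%, 3.02% and 7.71% lower. Between genotypes at 24 and 48 h, 0.629% and 1.54% were higher and 0.744% and 1.69% lower. With 100 normalized reads in any library and size factors over those genes, 2 members passed at 6 h in WT cells (Tirap at 0.59) and 1 of the wider relay between genotypes at 0 h. With an FPKM of at least 1, the wider relay had 3 at 6 h in WT cells, 5 at 6 h in Bmal1KO cells, and 3, 1, 3 and 5 between genotypes at 0, 6, 24 and 48 h. Of all genes with that FPKM, 15.4% were higher and 9.11% lower at 6 h in WT cells, and 11.1% and 11.6% in Bmal1KO cells. Between genotypes, 12.8%, 9.04%, 12.8% and 15.3% were higher at the 4 times, and 8.79%, 11.8%, 9.57% and 12.1% lower. The cause of these moves was not tested, other than the line or filter itself. No member past 1.5-fold changed sign under any alternative. In the fit of genotype plus time, chosen after seeing the data, limma called 1, 3 and 4 members at 6, 24 and 48 h and 0 between genotypes. Each count was the same under the other scalings except for 5 at 48 h without size factors (with Tirap), where 12.3% of all genes were called higher and 25.3% lower, beside 17.0% and 18.1%. Between genotypes, 32 of all genes were called, and 22, 18, 20 and 33 without the 0, 6, 24 and 48 h libraries in turn, with 0 members in each. The labels carry no replicate numbers, and time was the only match between genotypes. Counting intervals of the members' ratios were at most 0.29 wide on either side on the log2 scale.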

Other observations

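Within libraries, the balance of the adaptors also moved, as values with no explanation and chosen after seeing them. Myd88 stood at 6.63, 5.78, 6.10 and 3.59 times Ticam1 at 0, 6, 24 and 48 h in WT cells and at 6.25, 4.67, 5.29 and 4.10 times in Bmal1KO cells, lowest at 48 h in both. Ticam2 stood at 1.41, 1.42, 2.35 and 1.77 times Ticam1 in WT cells and at 1.47, 1.07, 2.08 and 1.90 times in Bmal1KO cells, highest at 24 h in both. Traf1 stood at 4.92, 5.53, 7.75 and 8.47 times Traf6 in WT cells and at 5.12, 7.90, 8.38 and 6.23 times in Bmal1KO cells, and the 95% counting intervals of the 48 h ratios, 7.32 to 9.84 and 5.54 to 7.01, did not overlap.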
